A study of Mus musculus with 10 samples.

Results

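Astroglia release proteins that promote, mature or restrain synapses, and 9 genes for such factors were followed here in single Bergmann glia, the astroglial cells of the cerebellar cortex whose processes wrap Purkinje neuron synapses. The genes were Sparcl1 (hevin), Sparc, the thrombospondin genes Thbs1, Thbs2, Thbs3 and Thbs4, the glypican genes Gpc4 and Gpc6, and Chrdl1 (chordin-like 1). They were taken as a list of genes by name, and each was read through every probe set that the array annotation assigned to that gene alone and that had a value in every cell. This gave 22 probe sets, of 33964 such probe sets for 17919 genes in all. Sparc had 3, Sparcl1 1, Thbs1 2, Thbs2 3, Thbs3 1, Thbs4 1, Gpc4 2, Gpc6 5 and Chrdl1 4, and 1 further probe set, assigned to Pald1 and Thbs1 together, was left out. None of the 220 member values lay at the lower limit of the data.

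The cells came from mice of a GFAP-GFP reporter line, in which the Gfap promoter drives GFP, and both ages carried the reporter. In all, 5 cells at P30 and 5 at P6 were taken from the mid-sagittal cerebellum. They were picked singly by strong GFP and a bushy shape after the tissue was dissociated, and their cDNA was amplified. The study then kept cDNA in which PCR and Southern blots found Gfap, Fabp7, Sept4 and Slc1a3 but neither Nefl nor Mtap2 (Map2). Those of best quality on a test array were each hybridised to 1 Affymetrix whole-genome mouse array. Values of these marker genes are therefore from cells selected on them. The labels call each cell a biological replicate of its age. No animal is named for any cell, so cells of an age may share an animal and each age counted as 1 sample. No test between the ages was therefore made, and SDs and ranges describe the cells. Values are log2 of the deposited ratio of a cell to the typical cell for the same probe set, so they compare cells within a probe set and say nothing of which gene is more abundant. A difference is the mean log2 ratio of the P30 cells minus that of the P6 cells, and 3-fold was used as a rule of size.

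Hevin, the Sparcl1 product, promotes the formation of excitatory synapses between cultured neurons, and SPARC, its relative, opposes that action. Thrombospondins are large matrix glycoproteins that induce structurally complete synapses through the calcium channel subunit encoded by Cacna2d1. Glypicans are heparan sulfate proteoglycans that, once shed by astrocytes, draw AMPA receptors to synapses, and chordin-like 1 is a secreted BMP antagonist that favours the switch to GluA2-containing AMPA receptors.

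The factors had no common direction between the ages. Of the 22 probe sets, 2 were over 3-fold higher at P30, both of Gpc6, where 6.91% of all probe sets passed that size (9.09% of the members). Another 2 were over 3-fold lower at P30, 1 of Thbs2 and 1 of Chrdl1, where 12.3% of all probe sets passed (9.09% of the members). Differences ran from -2.11 to 3.16, with 14 above and 8 below 0. Their median was 0.37, against -0.05 over all probe sets, and the median absolute difference was 0.84, against 0.70. In none of the 22 did all cells of one age lie beyond all cells of the other, which 3.17% of all probe sets did. With arrays centred on their medians the counts were again 2 higher and 2 lower, where 8.35% and 10.7% of all probe sets were, and relative to spiked-in control transcripts they were 2 and 3, where 4.89% and 16% were. With 22 probe sets, both shares of large differences lay near those of all probe sets on the array.

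**Figure D1:**
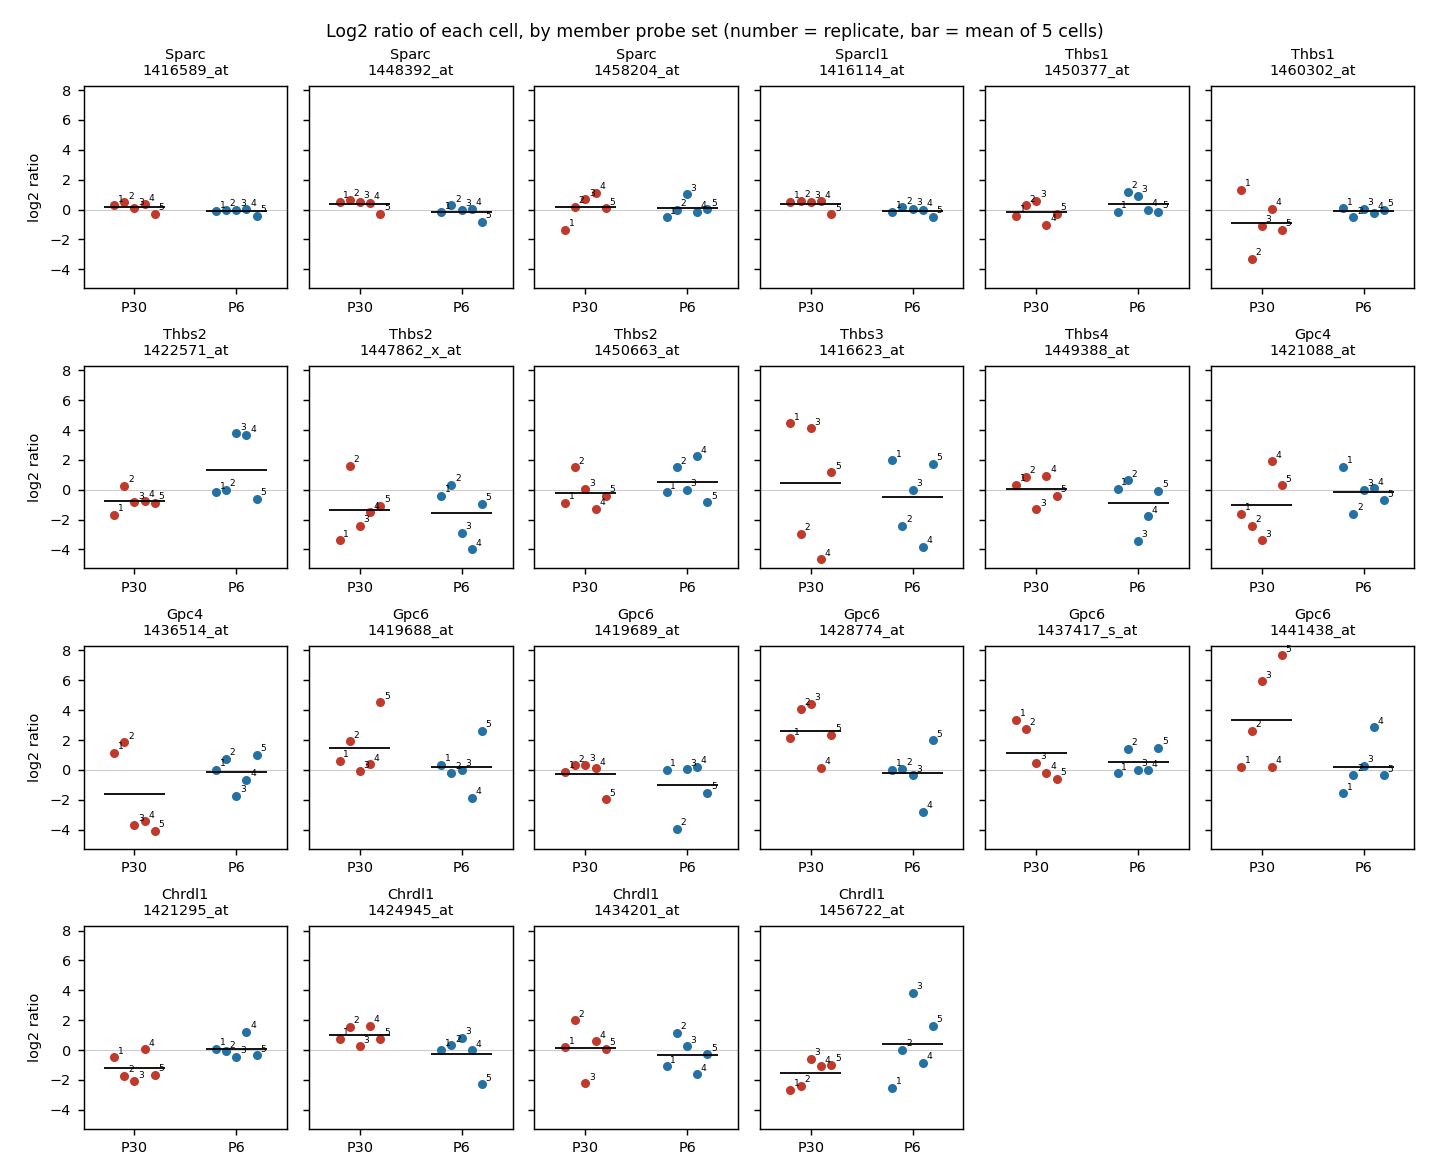
Log2 ratio of each cell (y axis, log2 of the ratio to the reference value of the probe set) for the 22 member probe sets, 1 panel each. The 5 P30 cells are left of the 5 P6 cells, with replicate numbers beside the points and a bar at the mean of 5 cells. The Sparc and Sparcl1 panels are narrow in 3 of 4 cases, the Gpc6 panels reach 7.68 in a P30 cell, and the Thbs3 cells spread from -4.65 to 4.45 with both ages overlapping.

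Members differed most in how far single cells lay apart, from Sparc 1416589_at, the steadiest probe set, to Thbs3, the most variable. To set these genes and Thbs2, which held the lowest difference, side by side at the DNA level, the 250 bases upstream of their annotated starts are given from RefSeq (GRCm38.p6), which held an entry for 5 of the 9 genes, Thbs4 and Gpc4 being the others. The Sparc window is chr11:55420081-55420330 on the minus strand, that of Thbs2 is chr17:14694263-14694512 on the minus strand, and that of Thbs3 is chr3:89214930-89215179 on the plus strand. Each is written 5′ to 3′ in the direction of the gene. Capitals mark 3 motifs searched on either strand, of which TATAAA was found in 12.4% of the 32851 annotated windows of that length, CCAAT in 33.8% and GGGCGG in 32.7%. They overlap one another in none of the windows shown.
Sparc: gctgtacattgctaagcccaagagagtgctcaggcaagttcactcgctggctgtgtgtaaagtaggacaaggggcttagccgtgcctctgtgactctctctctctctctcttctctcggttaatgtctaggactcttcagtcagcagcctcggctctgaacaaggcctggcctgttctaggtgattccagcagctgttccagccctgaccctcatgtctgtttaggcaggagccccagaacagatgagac
Thbs2: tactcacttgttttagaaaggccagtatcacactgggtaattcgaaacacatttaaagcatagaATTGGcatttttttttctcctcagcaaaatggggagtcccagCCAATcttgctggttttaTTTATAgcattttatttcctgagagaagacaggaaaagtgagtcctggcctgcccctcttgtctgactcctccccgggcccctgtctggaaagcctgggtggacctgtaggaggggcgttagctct
Thbs3: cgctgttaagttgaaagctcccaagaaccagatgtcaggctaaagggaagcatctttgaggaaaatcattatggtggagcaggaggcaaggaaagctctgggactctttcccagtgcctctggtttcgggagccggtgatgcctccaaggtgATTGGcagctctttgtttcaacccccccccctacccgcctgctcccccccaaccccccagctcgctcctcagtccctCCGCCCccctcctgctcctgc
The Sparc window held none of the 3 motifs. The Thbs2 window held CCAAT 144 and, on the reverse strand, 186 bases before the start, and TATAAA on the reverse strand 126 bases before it. The Thbs3 window held a reverse-strand CCAAT 98 bases and a reverse-strand GGGCGG 21 bases before the start. These matches are a description of the letters and no site of any factor.

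Sparcl1 and Sparc, the pair with opposed actions at synapses, held the 3 most even probe sets of the factors among P30 cells, and 3 of the 4 most even among P6 cells. Sparcl1 (1416114_at) had log2 ratios of 0.52, 0.59, 0.53, 0.55 and -0.31 in P30 cells 1 to 5, against -0.15, 0.16, 0.037, 0 and -0.47 in P6 cells 1 to 5. The first 4 P30 cells lay together above every P6 cell, and P30 cell 5 lay below 4 of the 5 P6 cells, so the ages overlapped. The mean was 0.37 ± 0.38 at P30 and -0.083 ± 0.24 at P6 (SD over 5 cells each), a difference of 0.46, or 1.37-fold. Sparc, a matrix-associated protein, was much the same. Its probe set 1416589_at gave 0.28, 0.49, 0.092, 0.36 and -0.29 in P30 cells, against -0.13, 0, 0.0029, 0.016 and -0.41 in P6 cells. A second Sparc probe set, 1448392_at, gave 0.51, 0.67, 0.51, 0.47 and -0.26 in P30 cells, against -0.17, 0.28, 0, 0.057 and -0.84 in P6 cells. Cell 5 was the lowest of its age in both probe sets and at both ages. Differences were 0.29 and 0.51, neither near 3-fold, and only 0.877% of all probe sets varied less between the P6 cells than 1416589_at (SD 0.18), while 2.48% varied less between the P30 cells (SD 0.30).

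The third Sparc probe set, 1458204_at, did not follow the other two. It gave -1.37, 0.18, 0.68, 1.12 and 0.094 in P30 cells, against -0.52, 0, 1.02, -0.13 and 0.031 in P6 cells, a difference of 0.063. Its highest and lowest cells were both P30 cells, and its Pearson r with the other Sparc probe sets over the 10 cells was 0.083 and 0.063, against 0.93 between those. Sparcl1 and Sparc shared a pattern across genes instead, with r = 0.94 and 0.96 between Sparcl1 and the steady Sparc probe sets (Spearman rho 0.94 for both, n = 10 cells, which share array scale and the 2 ages).

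A similar order of cells was seen in control probes that carry no RNA of the cell. Hybridisation spikes, bacterial and phage transcripts added in fixed amounts (14 probe sets of BioB, BioC, BioDn and CreX), averaged 0.41, 0.47, 0.27, 0.33 and -0.41 in P30 cells 1 to 5, against -0.037, 0.14, 0.071, -0.0054 and -0.46 in P6 cells 1 to 5. Spike means were high in P30 cells 1 to 4 and low in cell 5 of either age, as the steady Sparc probe sets and Sparcl1 were. Pearson r with the spike mean over the 10 cells was 0.97 for Sparcl1 (rho 0.96) and 0.95 for both steady Sparc probe sets (rho 0.94 and 0.98). Of all probe sets, 163 (0.480%) had an r of 0.9 or more. The third Sparc probe set had r = 0.015, and the other 18 member probe sets lay between -0.49 and 0.69. Fabp7, a fatty acid binding protein of radial astroglia singled out after its values were seen, also had its lowest value in P30 cell 5, with 0.18, 0.38, 0.18, 0.21 and -0.61 in P30 cells, against -0.39, 0.16, 0.17, 0 and -0.39 in P6 cells. At P6 it was as low in cell 1 as in cell 5. Of the other astroglial markers, Gdf10, Vim, S100b, Sox9, Slc1a2 and Aqp4 were also lowest of the P30 cells in cell 5. Aldh1l1, Aldoc, Gfap, Gja1, Hopx and Slc1a3 were not. Slc1a3 had 1.06 in P30 cell 5, against -0.23, 0.54, 1.64 and -0.081 in P30 cells 1 to 4.

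**Figure D2:**
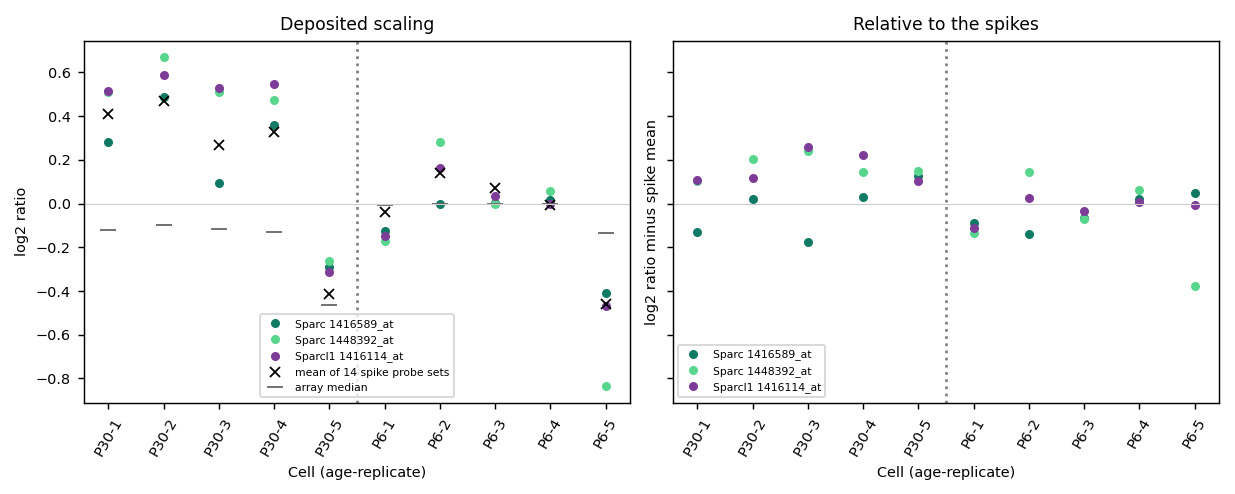
Log2 ratio of Sparcl1 and the 2 steady Sparc probe sets (coloured points), mean of the 14 spike probe sets (crosses) and array median (dashes) for each cell on the x axis, P30 cells left of P6 cells, with the deposited scaling on the left and values relative to the spikes on the right. On the left the points follow the crosses, including the drop at cell 5 of each age, and on the right Sparcl1 lies at 0.10 to 0.26 in P30 cells and at -0.11 to 0.024 in P6 cells.

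Relative to the spikes, Sparcl1 was 0.11, 0.12, 0.26, 0.22 and 0.10 in P30 cells, against -0.11, 0.024, -0.034, 0.0054 and -0.0072 in P6 cells. All 5 P30 cells then lay above all 5 P6 cells, by 0.19 on average, an arrangement that 0.845% of all probe sets showed under that scaling. Sparc 1416589_at had a difference of 0.019 relative to the spikes, with -0.18 to 0.12 in P30 cells and -0.14 to 0.05 in P6 cells, and Sparc 1448392_at one of 0.24, with 0.10 to 0.24 in P30 cells and -0.38 to 0.14 in P6 cells, so both overlapped. With each array centred on its own median instead, the differences were 0.61 for Sparcl1 and 0.45 and 0.67 for the steady Sparc probe sets, and 1416589_at then had all P30 cells above all P6 cells, as 2.48% of all probe sets had. The scalings moved every difference by the same amount, 0.16 for the medians and -0.27 for the spikes, so a difference of this size takes its value from the scale chosen.

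**Figure D3:**
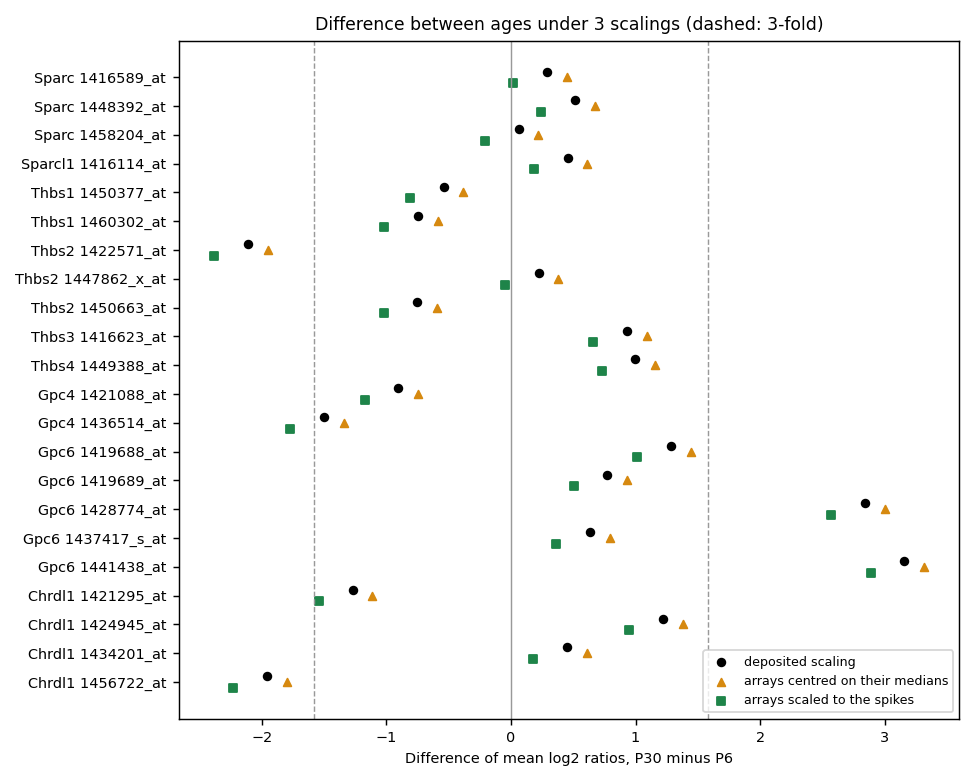
Difference of mean log2 ratios, P30 minus P6 (x axis), for each member probe set (y axis) under the deposited scaling (circles), arrays centred on their medians (triangles) and arrays scaled to the spikes (squares), with dashed lines at 3-fold. Gpc6 1441438_at and 1428774_at lie right of the upper line and Thbs2 1422571_at and Chrdl1 1456722_at left of the lower one under all 3 scalings, and Gpc4 1436514_at crosses the lower line under the spikes only.

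Gpc6, a glypican of the cell surface that is also shed, was higher at P30 in the mean of each of its 5 probe sets, by 0.64 to 3.16 on the log2 scale. Probe set 1428774_at had log2 ratios of 2.11, 4.10, 4.41, 0.12 and 2.36 in P30 cells, against 0, 0.062, -0.36, -2.81 and 1.98 in P6 cells. At this probe set 4 of the 5 P30 cells lay above every P6 cell and only P30 cell 4 lay among them. The mean was 2.62 ± 1.73 at P30 and -0.22 ± 1.71 at P6 (SD over 5 cells each), 7.18-fold higher. Probe set 1441438_at had 0.19, 2.63, 5.92, 0.19 and 7.68 in P30 cells, against -1.57, -0.34, 0.28, 2.84 and -0.38 in P6 cells. P30 cells 3 and 5 stood far above all others while the remaining P30 cells lay within the P6 range, and the mean was 8.92-fold higher at P30. Without P30 cell 5 its difference was 2.07, still over 3-fold.

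The other Gpc6 probe sets were nearer together. At 1419688_at the P30 cells had 0.62, 1.91, -0.091, 0.37 and 4.53, against 0.34, -0.18, 0, -1.85 and 2.60 in P6 cells, and cell 5 was the highest of its age at both ages. Its difference of 1.28 was 0.52 without P30 cell 5. At 1437417_s_at the P30 cells had 3.35, 2.77, 0.48, -0.20 and -0.58, against -0.23, 1.43, 0, -0.019 and 1.46 in P6 cells. Here P30 cells 1 and 2 were the high ones and P30 cell 5 the lowest of all, the reverse of 1441438_at. At 1419689_at the P30 cells had -0.12, 0.32, 0.33, 0.099 and -1.98, against 0, -3.93, 0.027, 0.22 and -1.53 in P6 cells, with 1 low cell at P30 and 2 at P6. Pearson r between Gpc6 probe sets ran from -0.30 to 0.57 over 10 pairs, so they named different cells as high.

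P30 cell 5, which was highest for Gpc6 1441438_at and 1419688_at, also stood apart in markers of other cells. Its median log2 ratio over 9 of 10 endothelial markers was 2.06, against -0.41 to 0.23 in the other P30 cells and -0.36 to 0.22 in P6 cells. Of the 9, 7 lay more than 1 above the median of the other P30 cells, among them the angiopoietin receptor Tek at 5.48. Kdr, at 5.28 in that cell, was higher in P6 cell 5 (5.94) and had 2.24 in P30 cell 3. The median over 4 of 5 Purkinje neuron markers was 2.55 in that cell, where the other P30 cells had -0.82 to 0.15 and the P6 cells -1.07 to 0.95. Of these 4 markers, 3 lay more than 1 above the median of the other P30 cells, but Car8, at -1.29, was lowest there. Pvalb, at 7.23 in that cell, was also high in P30 cell 1 (6.21) and P6 cell 5 (7.07). Astroglial markers, 13 of 13 measured, had medians of -0.43 to 0.54 at P30 and -0.31 to 0.24 at P6, and P30 cell 5 was the lowest of all cells for them (other P30 cells 0.29 to 0.54). It was the highest of all cells for the granule neuron list, at 1.03 (other P30 cells -0.89 to -0.22, P6 cells up to 0.085). The same held for the neuronal list, at 0.53 (other P30 cells -0.84 to -0.31, P6 cells up to -0.099). Of 5 granule neuron markers, 3 lay more than 1 above the median of the other P30 cells, as did 4 of 8 neuronal markers. Map2 (-1.94) and Nefl (-0.31) were lower in P30 cell 5 than in any other P30 cell. Oligodendrocyte lineage markers, 8 of 9 measured, had medians of 0.15 to 0.75 in P30 cells, against -0.51 to 0.071 in P6 cells. These ranges lay narrowly apart on the deposited scale, the only scale used for markers. The ranges of the microglial and the pericyte or fibroblast lists overlapped between the ages. Ratios show no absence of a marker, and the part of other cells' RNA in the Gpc6 values and the other members was not tested.

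Gpc4, the other glypican of the list, was lower at P30 in the mean of both probe sets and the cells were split. Probe set 1436514_at had 1.16, 1.85, -3.68, -3.43 and -4.06 in P30 cells, against 0, 0.76, -1.75, -0.68 and 0.99 in P6 cells. P30 cells 1 and 2 were above every P6 cell and P30 cells 3 to 5 below every one, so a difference of means of -1.50 describes no single cell. The difference of medians was -3.43, past 3-fold, while the log2 ratio of arithmetic means was 0.11. Probe set 1421088_at had -1.61, -2.43, -3.38, 1.90 and 0.31 in P30 cells, against 1.53, -1.62, 0, 0.10 and -0.71 in P6 cells, a difference of -0.90. It placed P30 cells 1 and 2 low and cell 4 high, and r between both Gpc4 probe sets was -0.27.

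Among the thrombospondins, Thbs2 held the lowest difference and Thbs3 varied most between cells. Thbs2 1422571_at had -1.69, 0.25, -0.84, -0.74 and -0.87 in P30 cells, against -0.16, 0, 3.78, 3.64 and -0.59 in P6 cells. P6 cells 3 and 4 alone were high, and the other P6 cells lay within the P30 range, so the 4.32-fold lower mean at P30 came with 2 high P6 cells of 5. Thrombospondin 2 is also a product of fibroblasts, whose markers together with those of pericytes and meninges (9 of 9 measured) had medians of 0.11 and -0.21 in P6 cells 3 and 4 and of -0.55 to -0.058 in the other P6 cells. Without P6 cell 3 or P6 cell 4 the difference was -1.50 or -1.53, under 3-fold. Relative to the spikes its P30 cells lay at -0.22 or below and its P6 cells at -0.14 or above, the only member besides Sparcl1 whose ages did not overlap on that scale, where 3.45% of all probe sets were lower at P30 in this way. Thbs2 1450663_at, with -0.86, 1.51, 0.034, -1.29 and -0.42 in P30 cells, against -0.16, 1.50, 0, 2.24 and -0.83 in P6 cells, kept P6 cell 4 as the highest. Thbs2 1447862_x_at, whose suffix marks probes that can match other transcripts, put the same P6 cells 3 and 4 lowest, with -3.39, 1.61, -2.43, -1.50 and -1.09 in P30 cells, against -0.42, 0.33, -2.89, -3.98 and -0.95 in P6 cells. Differences of these 2 were -0.75 and 0.22, and r with 1422571_at was 0.56 and -0.35.

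Thbs3 (1416623_at) had the widest spread of the factors at each age, and no common shift with age. Its log2 ratios were 4.45, -2.93, 4.12, -4.65 and 1.17 in P30 cells, against 1.98, -2.43, 0, -3.81 and 1.74 in P6 cells. High and low cells were present at both ages, with an SD of 4.11 at P30 and 2.55 at P6 (n = 5 cells each), wider than 99.3% of all probe sets at P30 and 87.6% at P6. The difference of 0.93 was -0.071 without P30 cell 1 and 0.11 without P6 cell 4, and it was 2.20 without P30 cell 4. Its closest pattern among all genes was that of Gfap, the intermediate filament gene whose promoter drove the GFP by which cells were picked. Gfap was also among the markers that cells had to show to be kept. Gfap 1426509_s_at had 1.41, -4.38, 1.00, -4.94 and 0.21 in P30 cells, against 1.67, -4.74, 0, -6.13 and 0.43 in P6 cells, so cells 2 and 4 of either age were low in both genes. Pearson r with Thbs3 over the 10 cells was 0.94 (rho 0.94), and that of Gfap 1426508_at was 0.93, but the third Gfap probe set, 1440142_s_at, had r = 0.42 with 3 P6 cells at the lower limit of the data. Of 29503 candidate probe sets, 11 reached r = 0.9 with Thbs3 over the 10 cells, which share 2 ages and the array scale, and Gfap gave 2 of them.

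**Figure D4:**
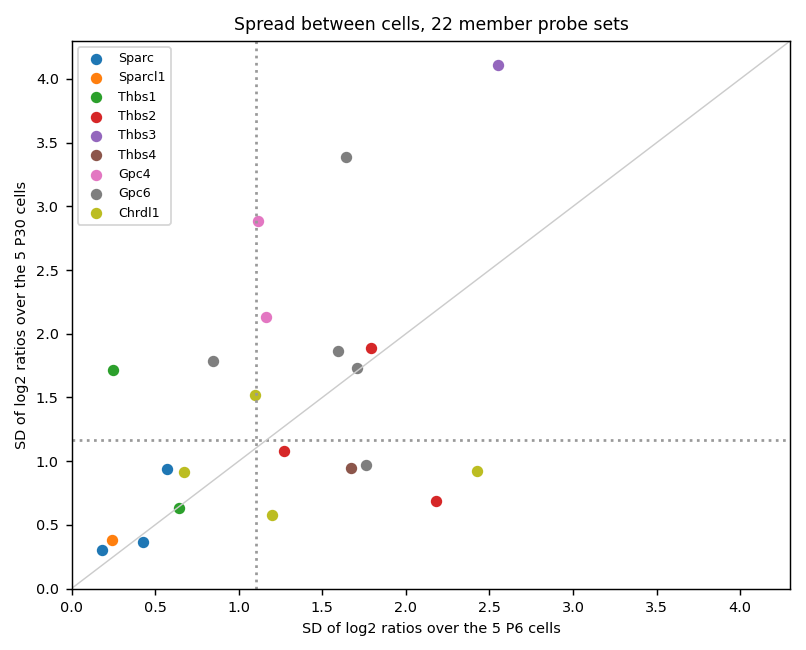
SD of the log2 ratios over the 5 P6 cells (x axis) and over the 5 P30 cells (y axis) for the 22 member probe sets, coloured by gene, with the line of equal SD and dotted lines at the medians of all probe sets. Sparcl1 and 2 Sparc probe sets lie in the lower left corner, Thbs3 at 2.55 and 4.11 in the upper right, and 14 of the 22 lie above the line of equal SD, as 55.2% of all probe sets do.

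Thbs4 (1449388_at) had 0.32, 0.85, -1.31, 0.94 and -0.41 in P30 cells, against 0.073, 0.63, -3.44, -1.79 and -0.077 in P6 cells, with a difference of 1.00. P6 cells 3 and 4, the 2 high cells of Thbs2 1422571_at, were the lowest here. Thbs1, whose product also activates latent TGF-beta, was lower at P30 in the mean of both probe sets. Thbs1 1450377_at had -0.41, 0.28, 0.58, -1.04 and -0.28 in P30 cells, against -0.14, 1.19, 0.93, 0 and -0.14 in P6 cells, a difference of -0.54. At 1460302_at the P30 cells had 1.32, -3.28, -1.08, 0.062 and -1.35, against 0.08, -0.52, 0.044, -0.20 and 0 in P6 cells, a difference of -0.75. In that probe set the P6 cells lay close together (SD 0.25) and the P30 cells did not (SD 1.71), with 1 cell above and 3 below all P6 cells.

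Chrdl1 gave no common direction, with 2 probe sets higher and 2 lower at P30. Probe set 1456722_at had -2.65, -2.40, -0.57, -1.08 and -0.99 in P30 cells, against -2.52, 0, 3.83, -0.85 and 1.64 in P6 cells. P6 cells 3 and 5 were high and P6 cells 1 and 4 lay among the P30 cells. The mean was 3.89-fold lower at P30, a difference of -1.96 that was -1.11 without P6 cell 3. Probe set 1421295_at had -0.49, -1.71, -2.09, 0.043 and -1.68 in P30 cells, against 0.08, -0.085, -0.44, 1.23 and -0.35 in P6 cells. In it 4 P30 cells were below every P6 cell and P30 cell 4 was not, with a difference of -1.27. Probe set 1424945_at ran the other way, with 0.74, 1.54, 0.25, 1.61 and 0.76 in P30 cells, against 0, 0.31, 0.81, -0.012 and -2.30 in P6 cells, a difference of 1.22 that was 0.70 without P6 cell 5. The last, 1434201_at, had 0.18, 1.99, -2.23, 0.60 and 0.08 in P30 cells, against -1.10, 1.15, 0.24, -1.63 and -0.28 in P6 cells, a difference of 0.45. The 6 pairs of Chrdl1 probe sets had r of -0.35 to 0.42.

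Patterns most like the 4 probe sets over 3-fold were those of Brinp3 and Ntm for Gpc6 1441438_at (r = 0.97 and 0.96), Zc3h14 and Cd2ap for Gpc6 1428774_at (0.96 and 0.92), Klhdc3 and Rabl3 for Thbs2 1422571_at (0.96 and 0.95) and Asphd2 and Ilkap for Chrdl1 1456722_at (0.96 and 0.95), all Pearson r over the 10 cells. For the 19 member probe sets that could be compared, the 2 most alike genes had r of 0.91 to 0.97, and 3 to 37 of the 29503 candidates reached 0.9.

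Lists of genes that work with or resemble the factors are given beside the shares over all probe sets, 6.91% over 3-fold higher and 12.3% lower at P30, with a median of -0.05. Of 60 probe sets for 19 receptors and synaptic partners, 8 were over 3-fold higher (13.3%) and 2 lower (3.33%) at P30, with a median difference of 0.12, and none was higher over the means of a gene's probe sets. Gria2 (GluA2, the AMPA receptor subunit whose synaptic entry chordin-like 1 favours) was higher by 2.88 at 1453098_at and had differences of 0.39 and 1.36 at its other probe sets. Bmpr1a, a BMP receptor, was higher by 2.46 to 2.83 at 3 probe sets and had 0.018, 0.28 and -0.39 at the other 3. Ptprd, a receptor phosphatase at synapses, was higher by 2.20 at 1435537_at, where its others had -0.37 to 0.98. Both lower ones were of Bmp7, a ligand that chordin family proteins bind, with a difference of -3.09 at 1418910_at. At 1435479_at, with 4 P30 and 2 P6 cells at the lower limit, it was -4.02, beside -0.81 at its remaining probe set. Of the 60, the ages did not overlap at Ptprd 1444492_at (0.71 to 1.42 in P30 cells, -0.37 to 0.34 in P6 cells). Nor did they at Cd47 1428187_at, of a thrombospondin receptor (-1.63 to -0.44, against -0.31 to 0.56). All others overlapped, and 3.17% of all probe sets did not.

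Of 18 probe sets for 13 relatives of the factors, none was over 3-fold higher and 3 were lower at P30 (16.7%), with a median of 0.13 that was -0.14 relative to the spikes. Fstl1, of the SPARC family, had -3.51 at 1416221_at but 0.25 at 1448259_at. Smoc1, of the same family, had -2.28, and -1.44 without P6 cell 3. Gpc1, a glypican, had a difference of -2.22, with -2.59 to -1.53 in P30 cells, against -0.79 to 1.78 in P6 cells. Its ages did not overlap, as was so for 3.17% of all probe sets. Gpc3, a glypican singled out after its values were seen, had 0.95 to 1.47 in P30 cells, against -1.99 to 0.64 in P6 cells. It was the only other of the 18 without overlap. Of 30 probe sets for 15 other secreted factors with roles at synapses, none was over 3-fold higher and 7 were lower at P30 (23.3%), with a median of -0.55. Il33, an alarmin that astrocytes release, was at the lower limit of the data in all 5 P30 cells, against log2 ratios of -2.34 to 0.82 in P6 cells. No other of the 30 was without overlap between the ages. Tgfb2, a growth factor, had differences of -3.60 to -2.44 at 3 probe sets and -0.066 at the fourth. At 1450923_at, of the 3, P30 cell 2 was at the lower limit, and the difference of -2.87 was -2.16 without it. Ptx3, a pentraxin, had -2.39 at 1418666_at, and -1.42, under 3-fold, without P6 cell 1. Tnc, the matrix protein tenascin C, had -2.17 at 1456344_at with P30 cell 2 at the lower limit, and -1.10 without that cell.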

How the data were processed

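Single-cell cDNA of each Bergmann glial cell was made by oligo-dT priming under limiting conditions, so that it covers transcript ends, and was amplified by PCR before hybridisation. The deposited values are a linear ratio that the authors made with RMA in GeneSpring GX 7.3, with a floor of 0.01, division of a chip by its median, and division of a probe set by its own median. In the file the P6 median ratio is 1 (tolerance 0.0005) in 69.5% of complete probe sets, so the P6 cells set the zero of most log2 values. The genome build behind the array annotation is not given in the sources used here.

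Of 45101 probe sets, 43608 were complete, 1493 had no P6 value and were left out, and 33964 complete ones were assigned to exactly 1 gene by the platform annotation. A value listed as 0 (10 in all) was set to 0.01. Log2 ratios were averaged per age, differences taken P30 minus P6, and 3-fold (the methods' size rule) used with no test between ages, since each sample is 1 cell and no animal is named. The methods' one-way ANOVA takes cells as replicates and was not repeated. The number of arrays limits the precision, and signal over background was not used here.

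All member probe sets were named, with up to 4 genes of each list that passed 3-fold, largest first. The 2 genes of highest Pearson r (SD of at least 0.5 over the 10 cells, no value at the floor) are named for the probe sets over 3-fold and, for Thbs3, the first of them, with ranges for the rest. The members, lists and markers were chosen with earlier results of these data known. The partner lists were relatives, receptors and partners (1 listed gene is not reported here) and other secreted factors. Alternatives were scaling to array medians or spikes, a floor of 0.1, differences of medians, arithmetic means, leaving out _x_at and _s_at probe sets, gene means, 2-fold, and each cell left out. Leaving out cell 5 of both ages together was added after seeing the data. Scripts were tested on simulated data and run with SciPy 1.17.1, NumPy 2.4.6 and pandas 2.3.3 under Python 3.11.15, and figures were drawn with Matplotlib 3.10.9.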

Additional observations from a re-analysis of the deposited data

Results flagged for a closer look

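In 4 of the 44 sets of 5 cells (22 probe sets at 2 ages) 1 cell lay apart. Its gap to the nearest other over the whole range was above Dixon's critical value of 0.71. That value is set for about 1 in 20 of independent, normally distributed sets, whereas these sets share the same arrays. The share over all probe sets was not computed, so the count of 4 says nothing particular of the members. At P30 this was cell 5 for Sparc 1448392_at, at -0.26 where the other P30 cells had 0.47 to 0.67. P30 cell 5 was also the one for Sparcl1 1416114_at, at -0.31 where the others had 0.52 to 0.59. For Gpc6 1419689_at it stood at -1.98, where the others had -0.12 to 0.33. At P6, cell 5 stood out for Chrdl1 1424945_at, at -2.30 where the others had -0.012 to 0.81. All 4 were a cell 5, and the spike mean was the lowest of its age in cell 5 of each age (-0.41 at P30 and -0.46 at P6). Relative to the spikes, P30 cell 5 had 0.15 for Sparc 1448392_at and 0.10 for Sparcl1, beside 0.10 to 0.24 and 0.11 to 0.26 in the other P30 cells. Gpc6 1419689_at was still lowest in P30 cell 5, at -1.56 (others -0.53 to 0.063), and Chrdl1 1424945_at in P6 cell 5, at -1.84 (others -0.0062 to 0.74). Dixon's value was applied on the deposited scale only.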

How the results depend on the processing

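For single member probe sets, 360 of 372 alternatives kept the sign of the difference, 352 kept its side of 3-fold and 1 moved by more than the spread between cells (Sparc 1416589_at, 0.019 relative to the spikes). Signs turned for Sparc 1458204_at, Thbs2 1447862_x_at, Thbs3, Gpc4 1436514_at and Chrdl1 1434201_at. The Gpc6 differences at 1428774_at and 1441438_at stayed over 3-fold in all of them, at 2.20 to 3.47 and 1.93 to 4.74. By the difference of medians, Thbs2 1422571_at (-0.84) and Chrdl1 1456722_at (-1.08) were under 3-fold, and the 3 lower by that measure were others, Gpc4 1436514_at (-3.43), Gpc4 1421088_at (-1.61) and Chrdl1 1421295_at (-1.59). The median over members was 0.10 relative to the spikes. The count of members over 3-fold higher was 4 by arithmetic means, 1 over gene means and 4 at 2-fold, and that of members lower was 0 over gene means and 4 at 2-fold. Shares over all probe sets were computed only for 3-fold under the deposited, median and spike scalings. Counts under the other alternatives therefore cannot be set against all probe sets. Leaving out single cells gave 2 to 3 higher, 1 to 3 lower (1 without P6 cell 3) and a median of 0.12 to 0.43.

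For relatives, the median was 0.28 with centred arrays, -0.14 relative to the spikes, -0.20 by medians and -0.082 over gene means, with 3 higher at 2-fold and 1 without both cells 5. Leaving out single cells gave 0 to 1 higher, 3 to 4 lower and a median of -0.087 to 0.21. For receptors and partners, the median was -0.15 relative to the spikes, 4, 5, 1 and 4 were lower by medians, arithmetic means, gene means and 2-fold, and 0 and 5 higher over gene means and without both cells 5. Leaving out single cells gave 6 to 9 higher, 2 to 3 lower and a median of 0.047 to 0.23. For other secreted factors, 1, 4 and 4 were higher by medians, arithmetic means and 2-fold, 3 were lower over gene means, and the median was -0.23 by medians and -0.90 by arithmetic means. Leaving out single cells gave 0 to 2 higher, 5 to 9 lower and a median of -0.69 to -0.27. These counts of the lists likewise have no share over all probe sets beside them. No paired analysis was possible because each age counts as 1 sample, so the differences come from no test, and the labels do not say whether a number links cells of the 2 ages.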
